A study of Mus musculus with 6 samples.

Results

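The β2 integrins are the leukocyte adhesion receptors built from the shared chain CD18, encoded by Itgb2, and 1 of 4 α chains: CD11a (Itgal), CD11b (Itgam), CD11c (Itgax) and CD11d (Itgad). Chromatin accessibility at these 5 genes was read from 6 ATAC-seq peak lists of leukemia stem cells (LSCs). Every peak that overlapped a gene body or the 20000 bp on either side of it (GRCm38, GENCODE M21) was taken, and overlapping peaks of the 6 lists were merged into regions. This gave 59 of the 112852 regions of the whole data set. A region was given to the gene that held its summit, or otherwise to the nearest of the 5 genes, and was named by the distance of its summit from the start of that gene. There were 14 regions for Itgal, 13 for Itgam, 3 for Itgax, 12 for Itgad and 17 for Itgb2. The windows of Itgam, Itgax and Itgad overlap one another.

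Each α chain reaches the cell surface only as a pair with CD18. The Itgal pair (LFA-1) binds intercellular adhesion molecules, and the Itgam pair (Mac-1, complement receptor 3) binds a fragment of complement C3 and many other ligands. CD11b appears as myeloid progenitors mature toward granulocytes and monocytes and is widely used as a marker of that step. In ATAC-seq, the Tn5 transposase places sequencing adapters preferentially where chromatin is open, so that reads pile up at accessible promoters and enhancers.

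The samples were 3 control and 3 treated samples of L-GMP cells, labelled as LSCs of acute myeloid leukemia (AML) with WT genotype. These are GFP-marked leukemic cells of a murine MLL-AF9 model with the surface phenotype of granulocyte-monocyte progenitors (GMP), kept in RPMI1640 with serum and mouse IL3 and sorted before tagmentation. Treated cells received MMF (mycophenolate mofetil), an inhibitor of inosine monophosphate dehydrogenase in guanine nucleotide synthesis, for 24 h according to the labels. Other text of the study gives a shorter exposure and another dose for these data, so the time is uncertain and no dose is given. The control samples are labelled only as control, and all 6 samples carry the same leukemic driver. Independence of samples is stated for the study as a whole, but neither the labels nor the methods of this assay say whether these samples came from separate mice or cultures, so p-values measure only the spread between these samples, which may be technical.

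The lists held between 58496 and 63911 peaks in control and between 80893 and 86556 with MMF. The genome-wide background, the number of reads expected by chance over a summit and a measure of depth, was 0.620 to 0.729 reads in control and 0.676 to 0.909 with MMF. The label was set beside cell type markers by the presence of a peak within 1000 bp of a gene start. Of 12 GMP genes, 6 had such a peak in all 3 control lists and 9 in all 3 MMF lists, while Mpo and Prtn3 had none in any list. Levels are in summit reads per genome-wide background, the unit used throughout. Over the 5 of these genes with a peak in every list, the summed level was 271.7 to 293.5 in control and 297 to 344.4 with MMF. Over all 12 it was 303.2 to 367.7 and 466.4 to 512.9, where a gene without a peak in a list counted as 0, as it does in each sum over a whole marker list, although such a gene has no known level. The 5 genes with a peak in every list did not move together. Ctsg, Spi1 and Csf3r were higher in every MMF sample than in any control sample, and Kit overlapped. Cebpa, the highest of the 5, was lower, with 131.7, 144.6 and 137.1 in control and 122.1, 116.2 and 96.1 with MMF. Cd34 had a peak in 3 control lists and 2 MMF lists. None of the 6 T cell genes had a peak in any list. Ncr1 of the 2 NK cell genes had none, and the sum stayed at or below 9.9. The 4 erythroid genes, of which Gata1 had no peak, summed to 122.2 to 132.2 in control and 112.2 to 116.1 with MMF.

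The sequences below (GRCm38, plus strand, which is the coding strand of all 5 genes) are those of the starts of 3 α chain genes and of the regions to which the results return. Capitals mark matches, on either strand, to fixed consensus letters. These are GAGGAAGT for PU.1 and its core GAGGAA, which lies within it, TTGCNNAA for C/EBP factors, TGTGGTT for RUNX factors, TGANTCA for AP-1, CCGGAAGT for ELK1 and GABP, GGGCGGG for Sp1, and AGATAA for GATA factors. The first 3 are the 200 bases before the gene start (chr7:127296060-127296259, chr7:128062440-128062639 and chr7:128129347-128129546). The next 3 are the 200 bases around the summits of the intronic Itgam region at +0.9 kb (chr7:128063478-128063677), the intronic Itgb2 region at +24.8 kb (chr10:77554964-77555163) and the region downstream of Itgal at +55.6 kb (chr7:127351739-127351938). The last is a short stretch at the summit of the Itgax region at +4.3 kb (chr7:128133854-128133877), kept short because it lies in an annotated exon.
Itgal before the start: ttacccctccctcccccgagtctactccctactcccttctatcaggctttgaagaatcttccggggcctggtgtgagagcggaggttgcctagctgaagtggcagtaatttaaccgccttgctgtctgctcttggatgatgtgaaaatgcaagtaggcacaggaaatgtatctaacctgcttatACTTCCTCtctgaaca
Itgam before the start: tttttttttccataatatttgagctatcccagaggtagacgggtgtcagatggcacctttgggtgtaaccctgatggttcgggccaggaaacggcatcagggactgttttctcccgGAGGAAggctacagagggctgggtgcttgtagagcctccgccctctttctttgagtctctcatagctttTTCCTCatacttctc
Itgax before the start: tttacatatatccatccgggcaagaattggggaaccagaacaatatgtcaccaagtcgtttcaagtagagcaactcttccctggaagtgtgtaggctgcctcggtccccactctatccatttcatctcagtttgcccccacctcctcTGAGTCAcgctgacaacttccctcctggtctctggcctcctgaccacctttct
Itgam +0.9 kb: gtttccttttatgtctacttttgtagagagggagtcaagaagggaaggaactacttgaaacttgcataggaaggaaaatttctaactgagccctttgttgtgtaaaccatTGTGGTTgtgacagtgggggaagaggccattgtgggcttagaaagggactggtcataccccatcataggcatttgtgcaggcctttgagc
Itgb2 +24.8 kb: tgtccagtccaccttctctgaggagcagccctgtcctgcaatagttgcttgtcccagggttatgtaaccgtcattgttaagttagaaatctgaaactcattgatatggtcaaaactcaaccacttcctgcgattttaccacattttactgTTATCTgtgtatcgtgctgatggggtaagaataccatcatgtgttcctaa
Itgal +55.6 kb: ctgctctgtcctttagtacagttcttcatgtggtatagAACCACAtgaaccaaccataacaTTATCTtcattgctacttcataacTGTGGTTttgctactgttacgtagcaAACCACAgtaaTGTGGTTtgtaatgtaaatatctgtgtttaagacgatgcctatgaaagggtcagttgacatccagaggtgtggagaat
Itgax +4.3 kb: ACTTCCTCttgaagcaACTTCCTC

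**Figure D1:**
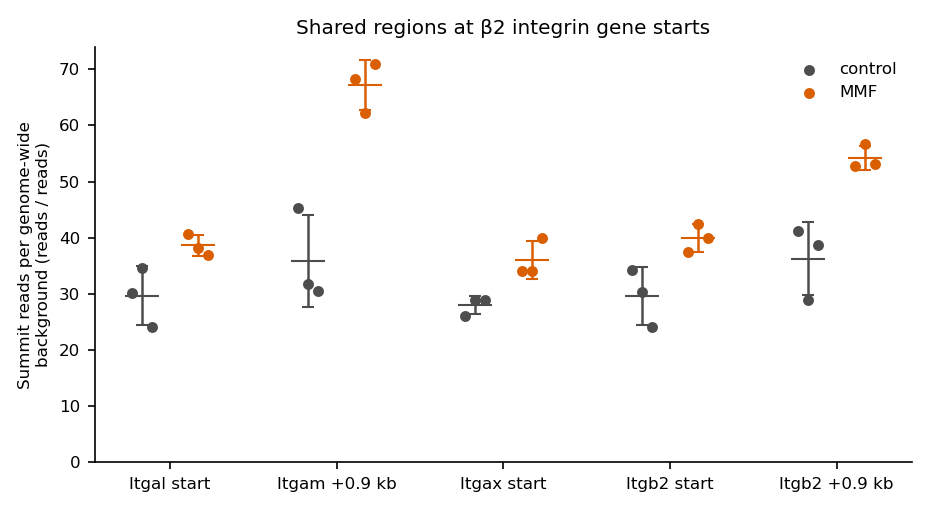
Summit reads per genome-wide background (y axis, from 0) in the 3 control (grey) and 3 MMF (orange) samples at the 5 shared regions within 1000 bp of a β2 integrin gene start, with the mean and SD as a bar and whiskers. The MMF samples lie above the control samples in all 5 regions, with the widest gap at Itgam +0.9 kb (30.6 to 45.3 against 62.3 to 71.0).

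Within 1000 bp of the gene starts, the intronic regions at +0.9 kb of Itgam and Itgb2 were called higher with MMF. On fold enrichment neither was called (limma adjusted p = 0.194 and 0.204). The region over the Itgam start had a peak in 1 control list, at 37.1, and in all 3 MMF lists, at 35.5 to 36.8. The intronic region just inside Itgam rose 1.90-fold and the one just inside Itgb2 rose 1.51-fold, while the regions over the starts of Itgal, Itgax and Itgb2 had higher values in every MMF sample than in any control sample but did not pass the test. The start of Itgad had no peak in any list. For scale, limma called 21.8% of all 41182 shared regions higher and 3.09% lower, but of the promoter regions of the 11691 protein-coding genes that had one in every list, 3.26% were higher and 7.07% lower. In samples of bulk cells, a larger share of cells with an open site and a more open site per cell cannot be told apart.

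Itgam encodes CD11b. Its intronic region at +0.9 kb (128063264 to 128063736 on chromosome 7, also inside the overlapping gene model Gm49368) held 33, 22 and 19 summit reads in control and 62, 44 and 48 with MMF. Scaled to depth, these were 45.3, 31.8 and 30.6 in control (35.9 ± 8.13, SD, n = 3) and 68.2, 62.3 and 71.0 with MMF (67.2 ± 4.40, SD, n = 3). The lowest MMF sample exceeded the highest control sample. The log2 difference was 0.92 ± 0.19 (SE, limma adjusted p = 9.91e-05, Benjamini-Hochberg over 41182 shared regions). The exact permutation test over samples gave p = 0.1 (two-sided), the smallest p that 3 samples against 3 allow. On the authors' fold enrichment, which divides by the local background, the difference was 0.46 on the log2 scale and was not called (limma adjusted p = 0.194). The local background is a read density over 10 kb, and around this region it was 4.03 to 4.64 times the genome-wide background in control and 5.87 to 6.87 times with MMF.

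The start of Itgam itself (128062535 to 128062743) had a peak in 1 control list and in all 3 MMF lists. Its summit reads were 23 in control replicate 3 and 33, 26 and 24 with MMF, or 37.1 and 36.3, 36.8 and 35.5 per background, so that the control sample with a peak did not lie below the MMF samples. These peaks were 159 to 208 bp wide, and no list held a peak shorter than 150 bp. A list without the peak may therefore have held a stretch of enrichment that was too narrow to be called, and no level can be given for the other 2 control samples.

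Itgal encodes CD11a, the α chain of LFA-1. The region over its start (127296059 to 127296737 on chromosome 7) had values of 30.2, 34.7 and 24.2 in control and 40.7, 38.2 and 37.0 with MMF. The groups did not overlap, and the log2 difference of 0.39 ± 0.22 (SE) was not called (limma adjusted p = 0.201). Its summit window holds a match to the PU.1 letters that lies before the start and is printed above. A second region at +1.0 kb had peaks in 2 MMF lists only (12 and 8 summit reads), and the region at +12.8 kb, within 1000 bp of an internal start, had values of 15.9 to 17.7 in control and 15.6 to 18.7 with MMF, which overlap.

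Itgax encodes CD11c, common on dendritic cells and macrophages. The region over its start (128129174 to 128129731) had values of 26.1, 28.9 and 29.0 in control and 34.1, 34.0 and 39.9 with MMF. The MMF values were all higher, with a log2 difference of 0.36 ± 0.23 (SE, limma adjusted p = 0.261), which turned to -0.020 on the rank by fold enrichment.

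Itgb2 encodes CD18, without which none of the 4 α chains is displayed. Over its start (77530028 to 77530477 on chromosome 10) the values were 34.3, 30.4 and 24.2 in control and 37.4, 42.5 and 39.9 with MMF. These did not overlap, and the log2 difference of 0.44 ± 0.22 (SE) was not called (limma adjusted p = 0.138). At +0.9 kb, in an intron (77530982 to 77531524), the values were 41.2, 28.9 and 38.7 in control and 52.8, 56.7 and 53.2 with MMF, a log2 difference of 0.60 ± 0.20 (SE, limma adjusted p = 0.0177). This call was lost without control replicate 2 (limma adjusted p = 0.121) or MMF replicate 2 (limma adjusted p = 0.0678), under both other scalings, on fold enrichment and on both ranks.

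Itgad, which encodes CD11d, differed from the other 4 genes in having no peak within 1000 bp of its main start. An internal start at +19.6 kb had a peak in control replicate 2 only, with 5 summit reads. The gene start overlaps the processed pseudogene Gm17831.

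The windows also held 4 shared regions at promoters of other protein-coding genes: Zfp768 near Itgal, the divergent pair 9130023H24Rik and Armc5 near Itgad, and Fam207a and Pttg1ip near Itgb2. By limma 0 of these 4 regions were called (1 lower at an unadjusted p below 0.05), and the groups overlapped in all 4. Of all shared regions, 29.1% had all MMF samples above all control samples and 7.68% had them below. With so few regions the shares called at all promoters (3.26% and 7.07%) would also give few or none. Relative to the median change of all shared regions, the Zfp768 promoter and that of 9130023H24Rik and Armc5 were called lower. That scaling centres each sample on its median ratio to the region mean. On it, 31.7% of the promoter regions of all protein-coding genes were called lower and 1.72% higher. The Zfp768 promoter had values of 112.5, 125.8 and 122.5 in control and 100.1, 87.8 and 113.8 with MMF (log2 difference -0.26 ± 0.13, SE, limma adjusted p = 0.126). The Pttg1ip promoter, the nearest downstream of Itgb2, had 88.2 to 112.9 in control and 99.0 to 109.1 with MMF. These promoters were stronger than any region at an integrin start, and the 9130023H24Rik and Armc5 region was the highest of the 59, at 188.7 to 228.5 in control and 165.7 to 227.6 with MMF. A smaller region of that pair, at +82.9 kb, had a peak in 1 list of each group.

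**Figure D2:**
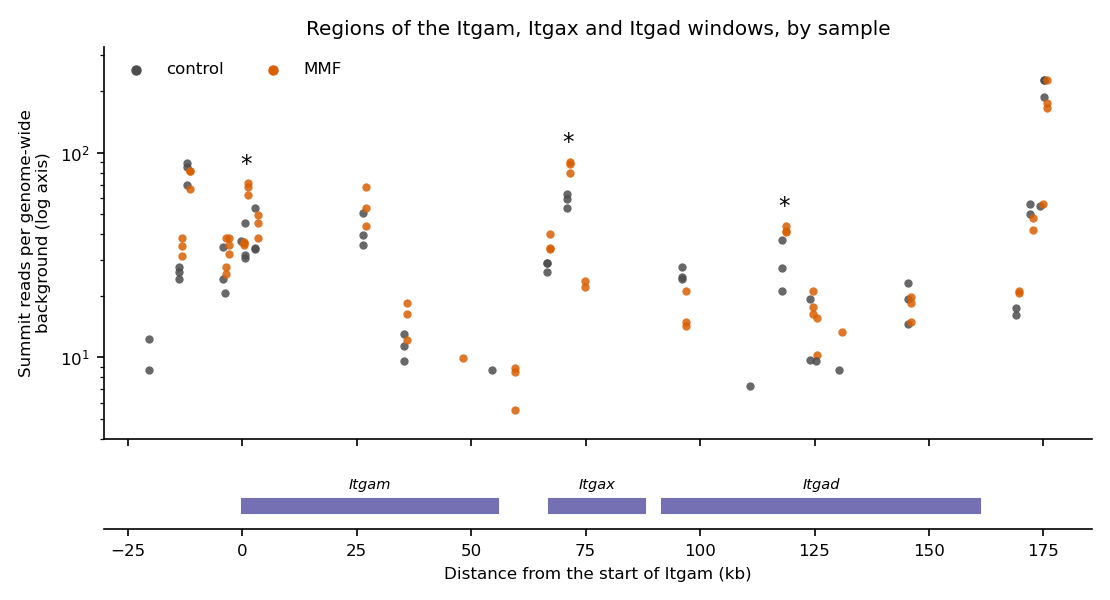
Summit reads per genome-wide background (y axis, log scale) at each region of the Itgam, Itgax and Itgad windows, by distance of its summit from the start of Itgam in kb, with gene bodies drawn as bars below. Each point is 1 sample, a region with fewer than 6 points had no peak in the remaining lists, and the 3 regions called higher with MMF carry an asterisk, among them Itgax +4.3 kb with 53.5 to 62.9 in control and 79.8 to 90.7 with MMF.

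Beyond its promoter, Itgam had 3 shared regions inside the gene and 2 upstream, and limma called 0 of these 5 (1 higher at an unadjusted p below 0.05), a count too small to set against the 21.8% of all shared regions. All 3 intragenic elements lie in introns. The one at +3.1 kb (128065639 to 128065917) had values of 34.3, 53.5 and 33.9 in control and 49.5, 45.3 and 38.4 with MMF. The one at +26.7 kb (128088976 to 128089760) had 39.8, 50.6 and 35.5 in control and 44.0, 53.8 and 68.0 with MMF. The weak one at +35.7 kb (128098165 to 128098489) had 9.6, 13.0 and 11.3 in control and 12.1, 18.4 and 16.3 with MMF. The groups overlapped in all 3, and the log2 differences were 0.16 ± 0.21, 0.39 ± 0.19 and 0.45 ± 0.30 (SE), with limma adjusted p-values of 0.626, 0.133 and 0.283. The difference at +3.1 kb turned negative on ranks, on fold enrichment and under both other scalings.

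Upstream of Itgam, the strongest element lies at -11.7 kb (128050705 to 128051359). Its values of 89.2, 85.3 and 69.3 in control and 81.4, 66.6 and 81.3 with MMF overlapped (log2 difference -0.09 ± 0.15, SE, limma adjusted p = 0.724). With each sample centred on its own median over shared regions, 25.3% of all shared regions were called lower and 8.76% higher. On that scaling this element was called lower (-0.44 on the log2 scale, limma adjusted p = 0.0161). In every sample it was higher than the region at +0.9 kb. The neighbouring element at -13.6 kb (128048777 to 128049218) had 26.1, 27.5 and 24.2 in control and 35.2, 31.2 and 38.4 with MMF. These groups did not overlap, and the difference of 0.43 ± 0.23 (SE) was not called (limma adjusted p = 0.183). Closer to the gene stand 2 elements that were not in every list. That at -3.9 kb had peaks in 2 control lists and 3 MMF lists (24.2 to 34.7 and 25.5 to 38.4), and that at -3.3 kb in 1 control list and 3 MMF lists (20.6 and 31.9 to 38.4). For the latter, 90.5% of the bases around the summit are soft-masked as repeats.

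The remaining Itgam regions were weak. An element at -20.0 kb, near the start of Gm9299, had peaks in 2 control lists (9 and 6 summit reads) and no MMF list. Single lists held a peak at +47.9 kb (7 reads, MMF replicate 2) and in the last exon at +55.0 kb (6 reads, control replicate 2). A region 3372 bp past the end of Itgam (128121769 to 128122007) was the only one of the 59 that was gained, with a peak in all 3 MMF lists and no control list. It rested on 5, 6 and 6 summit reads. This is 1.695% of the 59, and over all regions 6% (6772 of 112852) were gained. No integrin region was lost, against 0.182% over all regions. The gained region was no longer gained with lists of equal length or a −log10 q of at least 2, and with 1 sample left out the count of gained regions was 1 to 3 and of lost regions 0 to 1.

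Between Itgam and Itgad, Itgax had its main element at +4.3 kb (128133498 to 128134096). Its summit lies in an exon of 1 annotated transcript. The values were 53.5, 59.3 and 62.9 in control and 88.0, 90.7 and 79.8 with MMF, with no overlap. It rose 1.47-fold (log2 difference 0.56 ± 0.15, SE, limma adjusted p = 0.00423), and it exceeded the start region of Itgax in every sample. The call was lost relative to the median change of all shared regions (limma adjusted p = 0.0536), with each sample centred on its own median (0.309), and on fold enrichment or its rank. The window around its summit holds 3 matches to the PU.1 letters, of which the last 2 are printed above, and 1 to C/EBP. The remaining Itgax region, at +7.7 kb, had peaks in 2 MMF lists only (22.0 and 23.7).

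Within Itgad the intronic elements differed in sign. The broad one at +26.6 kb (128180070 to 128181075) had 27.4, 37.6 and 21.0 in control and 44.0, 41.1 and 41.4 with MMF, and rose 1.51-fold (log2 difference 0.60 ± 0.23, SE, limma adjusted p = 0.0415). This call was the least stable. It was lost without control replicate 1 (limma adjusted p = 0.0803), control replicate 3 (0.239), MMF replicate 1 (0.128), MMF replicate 2 (0.0838) or MMF replicate 3 (0.0815), and also under both other scalings, without a trend, on fold enrichment and on both ranks. The element at +4.8 kb (128158786 to 128159241) had 24.7, 27.5 and 24.2 in control and 14.3, 21.2 and 14.8 with MMF. All MMF samples were below all control samples, at a log2 difference of -0.62 ± 0.27 (SE), and the region was not called on this scale (limma adjusted p = 0.0835) but was called lower relative to the median change of all shared regions (limma adjusted p = 0.0221). The last shared region, at +54.0 kb, had 14.5 to 23.1 in control and 14.8 to 19.8 with MMF, which overlap. The other 6 regions inside Itgad or past it that were not in every list had peaks in 1 to 5 lists, and 3 of them, between +32.5 and +33.9 kb, lie in sequence of which 86.5% is soft-masked.

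**Figure D3:**
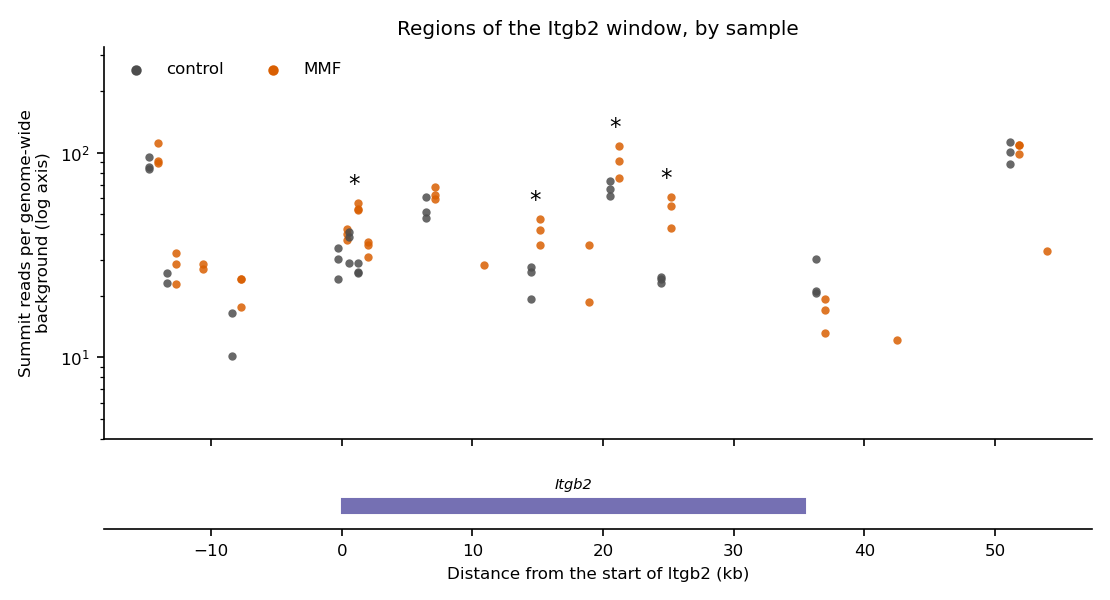
Summit reads per genome-wide background (y axis, log scale) at each region of the Itgb2 window, by distance of its summit from the start of Itgb2 in kb, with the gene body drawn below. Each point is 1 sample, and the 4 regions called higher with MMF, all inside the gene, carry an asterisk. At +24.8 kb the samples run from 23.1 to 24.7 in control and from 42.9 to 60.9 with MMF.

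Itgb2 had the most regions of the 5 genes, and 4 of its 10 shared regions were called higher with MMF, all of them in the gene body, where 21.8% of all shared regions were called. Relative to the median change, 2 of the 10 were called higher (+14.8 and +24.8 kb) and 1 lower, against 13.7% and 11.7% of all shared regions. The region at +24.8 kb (77554921 to 77555246), in an intron, had 18, 16 and 15 summit reads in control and 39, 43 and 37 with MMF. Scaled to depth the values were 24.7, 23.1 and 24.2 in control (24.0 ± 0.794, SD, n = 3) and 42.9, 60.9 and 54.7 with MMF (52.8 ± 9.15, SD, n = 3). It rose 2.18-fold (log2 difference 1.12 ± 0.22, SE, limma adjusted p = 4.68e-05), the smallest adjusted p of the 28 shared regions. The call held under all alternatives except the rank by fold enrichment (limma adjusted p = 0.0757).

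The intronic element at +14.8 kb (77544780 to 77545244) had 26.1, 27.5 and 19.3 in control and 41.8, 35.4 and 47.3 with MMF, a 1.72-fold rise (log2 difference 0.78 ± 0.23, SE, limma adjusted p = 0.00824). That call was lost without control replicate 3 (limma adjusted p = 0.0531) or MMF replicate 3 (0.0631), with each sample centred on its own median (0.15), on the rank of −log10 p (0.15) and on fold enrichment (0.471) or its rank (0.593). The strongest element of the gene, at +20.9 kb (77550891 to 77551351), had 72.7, 66.5 and 61.3 in control and 91.3, 107.7 and 75.4 with MMF. Its 1.36-fold rise (log2 difference 0.44 ± 0.15, SE, limma adjusted p = 0.0234) was lost without control replicate 2 (0.05), control replicate 3 (0.0881), MMF replicate 1 (0.0662) or MMF replicate 2 (0.195), and also under both other scalings, without a trend and on the rank of −log10 p. Its direction turned on fold enrichment (-0.12 on the log2 scale). The local 10 kb background around +20.9 kb was 3.22 to 3.66 times the genome-wide one in control and 5.72 to 6.03 times with MMF.

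The other 2 shared regions inside Itgb2 were not called. The one at +1.6 kb had 28.8, 26.0 and 25.8 in control and 30.8, 36.8 and 35.5 with MMF, which did not overlap, and the one at +6.8 kb had 48.0, 60.7 and 51.6 in control and 68.2, 59.5 and 62.1 with MMF, which did. Past the end of the gene, a region at +36.6 kb (77566523 to 77567028) had 20.6, 30.4 and 21.0 in control and 13.2, 17.0 and 19.2 with MMF. All MMF samples were lower there, with a log2 difference of -0.53 ± 0.28 (SE, limma adjusted p = 0.156, and 0.0476 relative to the median change). The 7 regions of the Itgb2 window that were not in every list had peaks in more MMF than control lists in all 7 cases, as did 73.9% of all regions not in every list. Among them, those at -10.9 and +18.6 kb had peaks in 2 MMF lists each, and those at +10.5, +42.1 and +53.6 kb in 1 MMF list each.

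**Figure D4:**
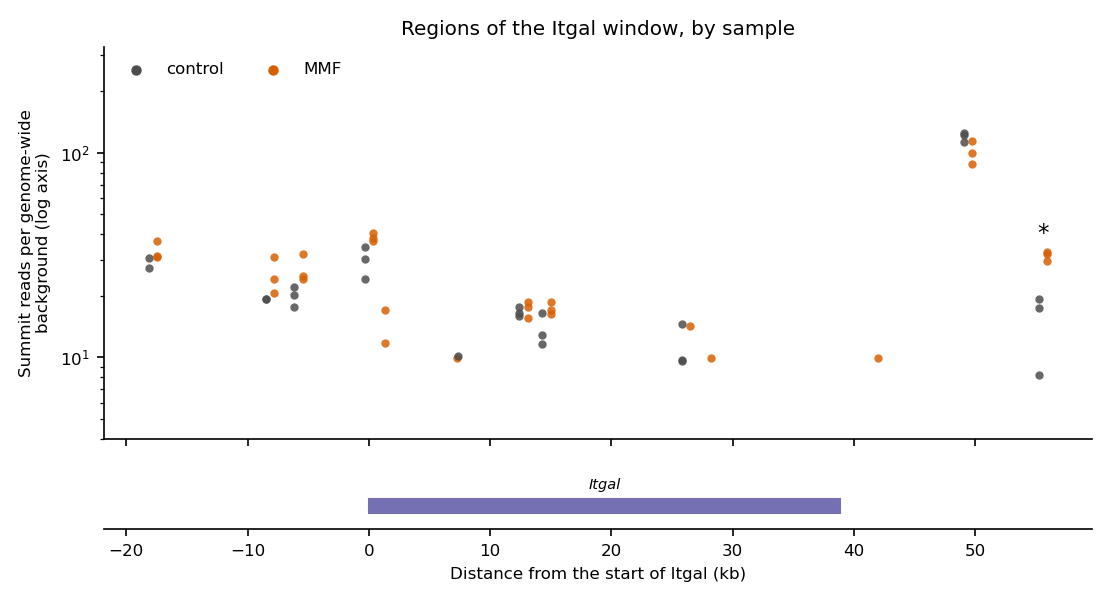
Summit reads per genome-wide background (y axis, log scale) at each region of the Itgal window, by distance of its summit from the start of Itgal in kb, with the gene body drawn below. Each point is 1 sample, and the region called higher with MMF (asterisk, +55.6 kb) has 8.2 to 19.3 in control and 29.6 to 32.6 with MMF.

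In the Itgal window, the region called higher lies 16701 bp past the end of the gene, on the far side of Zfp768, at +55.6 kb (127351592 to 127351978). It held 6, 12 and 12 summit reads in control and 29, 23 and 20 with MMF, or 8.2, 17.4 and 19.3 and 31.9, 32.6 and 29.6 per background. It rose 2.23-fold (log2 difference 1.16 ± 0.28, SE, limma adjusted p = 0.00101), the largest difference of the 28 shared regions. Without control replicate 1 the difference was 0.77 (limma adjusted p = 0.038), below Itgam +0.9 kb (1.10) and Itgb2 +24.8 kb (1.14) in that fit. The call was lost on the rank by fold enrichment (limma adjusted p = 0.0755). With equal list length or a −log10 q of at least 2 the region was not in every list. Its summit window, printed above, holds 4 matches to the RUNX letters, and 44.5% of it is soft-masked. The remaining 2 shared regions were not called. At -5.8 kb the values were 22.0, 20.2 and 17.7 in control and 31.9, 24.1 and 25.1 with MMF, without overlap, and at +14.6 kb they were 16.5, 11.6 and 12.9 in control and 18.7, 17.0 and 16.3 with MMF, with overlap. Of 8 Itgal regions not in every list, 4 had a peak in a single list. The intronic region at +26.2 kb had peaks in 3 control lists and 1 MMF list (6 to 10 summit reads), and those at -17.8 and -8.1 kb in 2 control and 3 MMF lists.

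**Figure D5:**
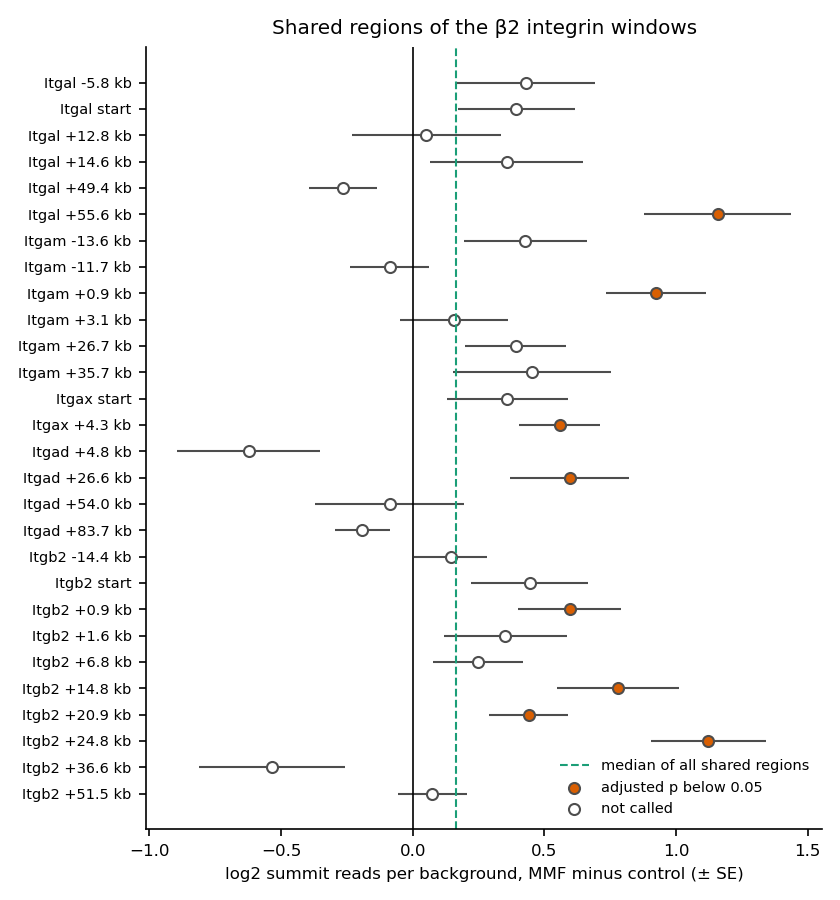
Difference in log2 summit reads per genome-wide background between MMF and control (x axis, points with SE as whiskers) for the 28 shared regions in genomic order within each window. The 8 filled points passed the test, all to the right of 0, and the dashed line marks the median of all 41182 shared regions at 0.165.

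Over all 5 genes, 8 of the 28 shared regions (28.6%) were called higher with MMF and 0 lower by limma, where 21.8% of all shared regions were called higher and 3.09% lower. At an unadjusted p below 0.05 the counts were 10 higher and 2 lower, and limma without a trend called 1 lower. The median difference of the 28 regions was 0.38 on the log2 scale, against 0.165 over all shared regions. Relative to the median change, 4 of the 28 were called higher and 4 lower, against 13.7% and 11.7% of all shared regions. This scaling, chosen after the data were seen, centres each sample on its median ratio to the region mean. It does not subtract the 0.165 itself. The 4 higher were Itgal +55.6 kb, Itgam +0.9 kb, Itgb2 +14.8 kb and Itgb2 +24.8 kb, and the 4 lower were the Zfp768 promoter, Itgad +4.8 kb, the 9130023H24Rik and Armc5 promoter and Itgb2 +36.6 kb. Of the promoter regions of all protein-coding genes, 31.7% were called lower on this scaling. With each sample centred on its own median, 3 were higher and 5 lower, against 8.76% and 25.3%. The regions called higher under all 3 scalings were Itgal +55.6 kb, Itgam +0.9 kb and Itgb2 +24.8 kb.

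All MMF samples lay above all control samples in 14 of the 28 regions (50%), against 29.1% of all shared regions, and below them in 2, against 7.68%. In the local 10 kb background, all MMF samples lay above all control samples around 15 of the 28 regions, against 32.4% of all shared regions. By gene these were 8 of 10 regions at Itgb2, 3 of 6 at Itgal, 2 of 6 at Itgam, 2 of 2 at Itgax and 0 of 4 at Itgad. This background contains the peaks themselves and is not independent of them. Regions less than 10 kb apart also share part of the same background, so these counts are not of separate observations. Of the 31 regions not in every list, 21 had a peak in more MMF than control lists and 6 in fewer, against 73.9% and 16.8% of all regions not in every list, so that the integrin share was no higher than the general one. The control lists held 36, 40 and 38 peaks in the windows and the MMF lists 46, 48 and 45, which is 0.0563% to 0.0650% of a control list and 0.0531% to 0.0557% of an MMF list.

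Some markers of mature cells moved with the groups and others did not. Of 8 genes of mature neutrophils or monocytes, 4 had a promoter peak in all 3 control lists and 6 in all 3 MMF lists, and only Cd300e had none in any list. Ly6g had one in 2 lists of each group. Of all regions not in every list, 73.9% had a peak in more MMF than control lists. The 4 with a peak in every list (Camp, S100a8, S100a9 and Cd14) summed to 62.2 to 83.8 in control and 146.4 to 168.5 with MMF. Camp, S100a8 and S100a9 carried this rise, while Cd14 had 16.5, 15.9 and 19.3 in control and 15.4, 15.6 and 20.7 with MMF. The sum over all 8, with missing peaks at 0, was 72.3 to 101.5 and 221.7 to 239.3. Ltf, a gene of secondary granules, had no peak in control and values of 9.9, 12.7 and 10.3 with MMF. The part of this difference in the values of the integrin regions was not tested.

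In sequence, the window around the summit had a median GC content of 51.5% over the 59 regions and 49.5% over all regions, and in 10.2% of both more than 50% of the window was soft-masked. Of the 59 windows, 6 held the PU.1 letters (10.2%, against 8.27% of all regions), 9 the C/EBP letters (15.3% against 14.9%), 10 the AP-1 letters (16.9% against 16.1%) and 5 the GATA letters (8.47% against 6.94%). The RUNX letters were in 13 (22% against 10.8%), among them 4 of the 8 regions called higher: Itgal +55.6 kb, Itgam +0.9 kb, Itgad +26.6 kb and Itgb2 +0.9 kb. The GATA letters were in 3 of these 8, Itgal +55.6 kb, Itgb2 +0.9 kb and Itgb2 +24.8 kb, of which the last holds no RUNX letters. The remaining GATA windows were Itgad +4.8 kb and the 9130023H24Rik and Armc5 promoter, both called lower relative to the median change. Over all shared regions, 10.4% held the RUNX letters and 5.79% the GATA letters. The shares over all regions called higher were not taken. The C/EBP letters and the core GAGGAA were in 2 of the 8 each, and the PU.1 and AP-1 letters in 1 each. The core GAGGAA was in 16 (27.1% against 31.3%), the ELK1/GABP letters in 1 (the Fam207a promoter, against 1.3%) and the Sp1 letters in none (against 8.13%). A match is a description of the letters and not a site of binding.

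Genes that act with β2 integrins were read at their promoters. Of 39 listed genes, 31 had a promoter region in all 6 lists, of which limma called 2 higher and 0 lower (4 and 3 at an unadjusted p below 0.05), with a median log2 difference of 0.0095. The 2 are 6.45% of the 31, beside the 3.26% of promoter regions of all protein-coding genes that were called higher (7.07% lower, median -0.10). C3, whose cleaved product is a ligand of the Itgam pair, had 34.3, 28.9 and 27.4 in control and 56.1, 59.5 and 66.5 with MMF, a 2.01-fold rise (log2 difference 1.01 ± 0.20, SE, limma adjusted p = 5.59e-05). Fgr, a Src family kinase that acts downstream of β2 integrins, had 13.7, 14.5 and 25.8 in control and 36.3, 39.7 and 31.0 with MMF, a 2.06-fold rise (log2 difference 1.04 ± 0.26, SE, limma adjusted p = 0.00154). Both called genes had no overlap between the groups.

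By role, 1 of 6 ligand genes, 0 of 8 genes of inside-out activation (among them Tln1 and Fermt3, which bind integrin tails), 1 of 9 genes of outside-in signalling and 0 of 8 other integrin subunits of blood cells were called higher, and 0 lower in each role. At the share of 3.26% for all protein-coding genes, groups of this size would hold few calls or none. The lowest differences without overlap were at Itgb7, a partner of the α4 chain, with 48.0, 57.9 and 41.9 in control and 36.3, 36.8 and 34.0 with MMF, and at Itga6, with 46.7, 59.3 and 54.8 in control and 38.5, 39.7 and 39.9 with MMF. Their log2 differences of -0.45 ± 0.20 and -0.44 ± 0.19 (SE) were not called (limma adjusted p = 0.0894 and 0.0822). Relative to the median change, 2 of the 31 were called higher and 4 (12.9%) lower, against 1.72% and 31.7% of the promoter regions of all protein-coding genes.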

How the data were processed

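The sources state that reads were trimmed with Trim Galore, mapped to mm10 (GRCm38) with Bowtie2 and called with MACS2, which the authors ran on each sample alone. Versions and MACS2 options are not given in the sources used here. In the deposited lists, fold enrichment is a ratio of summit reads to local background, with a single read added to each, and p and q are −log10 values. The authors' score column was not used, and neither were the reads nor PePr, the study's test on reads.

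Peaks on chromosomes 1 to 19, X and Y were kept and merged into 112852 regions (overlap of at least 1 bp), of which 41182 were shared by all 6 lists. Summit reads and background were solved from fold enrichment and p, with at least 99.99% of summits whole within 0.02 reads. Median summits held 14 to 19 reads. The main measure was log2 of the summit reads of the best peak per genome-wide background. It was tested with limma 3.58.1 in R 4.3.3 (eBayes with a trend, 3 control against 3 MMF, two-sided, Benjamini-Hochberg over shared regions, threshold 0.05) and describes called peaks only. Steps were tested on simulated data. Promoters lie within 1000 bp of a GENCODE M21 basic start, and a gene with several was counted by its strongest shared one. Motif windows of 200 bp and all sequences were read from GRCm38 with pysam 0.24.0. Same-numbered samples did not deviate together (correlations -0.0013, 0.0039 and -0.0026), so no block was used.

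Named regions were those at member promoters, shared inside a member gene, without overlap of groups, or gained or lost. The members, lists and motifs were chosen with earlier results of these data known. Alternatives covered the measure, scaling, variance model, list length, peak threshold, presence, overlap, block and each sample left out. The overlap alternative asked for at least 100 bp. It could remove no peak, because no list held a peak shorter than 150 bp. Marker lists of some other cell types are not reported here.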

Additional observations from a re-analysis of the deposited data

How the results depend on the processing

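Over all shared regions, 8958 were called higher and 1271 lower. These counts became 5501 and 133 on log2 fold enrichment, 3185 and 97 on ranks by fold enrichment, 3609 and 10423 when centred on the sample median, and 5659 and 4830 when centred on the median ratio (added after the data were seen). The lower count was 119 on ranks by −log10 p and 399 without a trend. With 1 sample left out they ran from 6627 to 8054 higher and from 786 (without MMF replicate 1) to 1145 lower. For the integrin regions, 8 higher and 0 lower became 2 higher on log2 fold enrichment, 0 on ranks by fold enrichment and 4 on ranks by −log10 p. They became 3 higher and 5 lower on the sample median, 4 and 4 on the median ratio, 6 higher and 1 lower without a trend, 7 higher with equal list length or a −log10 q of at least 2 (Itgal +55.6 kb was then not in every list), and 5 (without control replicate 3 or MMF replicate 2) to 7 higher and 0 to 1 lower (without MMF replicate 3) with 1 sample left out. The 1 gained region became 0 with equal list length or a −log10 q of at least 2. With 1 sample left out, 1 to 3 regions were gained (3 without MMF replicate 1 or 2) and 0 to 1 lost. The cause of these changes was not tested beyond the construction of each measure.

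At the promoters, the difference at Itgam +0.9 kb was no longer called on log2 fold enrichment (0.46) or its rank (0.48 score units), and ran from 0.82 to 1.10 with 1 sample left out. The difference at Itgb2 +0.9 kb was not called on fold enrichment (0.36), its rank (0.35) or the rank of −log10 p (0.46), nor on the sample median (0.24) or median ratio (0.42), and ran from 0.44 to 0.70. The Itgax difference turned to -0.020 on ranks by fold enrichment and ran from 0.28 to 0.40, and that of Itgal ran from 0.25 to 0.51. Pathway promoters called were 0 higher on ranks by fold enrichment, 12 lower on the sample median and 4 lower on the median ratio, with 2 to 3 higher and 0 lower when 1 sample was left out.

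Directions of single regions also turned. On log2 fold enrichment these were Itgam +3.1 kb (-0.23), Itgad +54.0 kb (0.056), Itgb2 -14.4 kb (-0.0032) and Itgb2 +20.9 kb (-0.12). On its rank they were Itgam +3.1 kb (-0.31), Itgax start (-0.020), Itgad +54.0 kb (0.025), Itgb2 -14.4 kb (-0.017), Itgb2 +6.8 kb (-0.0097) and Itgb2 +20.9 kb (-0.18). On the rank of −log10 p they were Itgam -11.7 kb (0.017) and Itgam +3.1 kb (-0.022). On the sample median they were Itgal +12.8 kb (-0.30), Itgam +3.1 kb (-0.20), Itgb2 -14.4 kb (-0.21), Itgb2 +1.6 kb (-0.0023), Itgb2 +6.8 kb (-0.11) and Itgb2 +51.5 kb (-0.28). On the median ratio they were Itgal +12.8 kb (-0.13), Itgam +3.1 kb (-0.020), Itgb2 -14.4 kb (-0.033) and Itgb2 +51.5 kb (-0.10). With 1 sample left out the range crossed 0 at Itgad +54.0 kb (-0.27 to 0.071, positive also at 0.037), Itgb2 +51.5 kb (-0.018 to 0.16), Itgal +12.8 kb (-0.0053 to 0.13) and Itgam -11.7 kb (-0.20 to 0.0096).

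With the replicate number as a block, 8889 regions were called higher and 1289 lower, and the integrin, promoter and pathway calls were the same in number and direction. Summits of 5 to 12 reads limit the weak regions, and a peak that is missing from a list gives no level.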
